A study of Mus musculus with 11 samples.

Results

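The T cell receptor loci of the mouse hold the V, D, J and C gene segments from which the alpha, beta, gamma and delta chains of the receptor are made. Every row of the count table whose symbol begins with Tra, Trb, Trd, Trg or Tcrg- followed by a segment letter was taken as a member, by name and not by its level. This gave 268 of the 49315 genes in the table, 189 of the alpha locus, 53 of the beta locus, 15 of the gamma locus and 11 of the delta locus. They were followed in whole skin of 11 Foxp3-DTR mice, 1 mouse per library, in which a cassette with the diphtheria toxin (DT) receptor and GFP sits at Foxp3, so that DT removes regulatory T cells (Tregs) and, with them, any other cell that uses this promoter. All 4 groups carried this genotype on a C57BL/6J background, and both sexes were used in the study. The 2 control mice received PBS, and the labels give no age at harvest for them. The study describes its comparisons with control as age-matched, at P9 and at P13, and which of these ages the 2 control mice had is not given in the sources used here. DT was given into the peritoneum at 30 ng/g to the groups labelled EarlyDT, LateDT and FullDT, called ΔETreg, ΔLTreg and ΔTreg here, on postnatal day (P) 6 and 8 to the 3 ΔETreg mice, on P10 and P12 to the 3 ΔLTreg mice, and on P6, P8, P10 and P12 to the 3 ΔTreg mice. Skin was taken 24 h after the last dose, at P9 for ΔETreg mice and at P13 for ΔLTreg and ΔTreg mice, so a difference between ΔETreg and the later groups cannot be told apart from 4 days of age. Since the age of the control mice is not given, a difference of any DT group from control may include age as well, here and below.

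A T cell joins 1 V and 1 J segment (with a D segment in the beta and delta loci) in its DNA and splices the product to a constant (C) region gene. Alpha and beta chains pair to form the receptor of conventional CD4 and CD8 T cells and of Tregs, and gamma and delta chains pair to form the receptor of γδ T cells. In mouse epidermis most resident T cells are dendritic epidermal T cells (DETCs), γδ cells that arise in the fetal thymus and use Tcrg-V5 with Trdv4. The delta locus lies inside the alpha locus, so that joining of alpha segments deletes delta. Transcripts of unjoined C genes and of unjoined or partly joined segments also occur, so a count on a segment does not by itself show a finished receptor.

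The sequences below are the ones on which the reading of the counts depends, taken from GENCODE M21 transcripts (GRCm38), 5′ to 3′ on the coding strand. Trbc1 (chr6:41538218-41539881, plus strand) and Trbc2 (chr6:41546730-41548352, plus strand) each have 518 coding bases here and differ at 23 of them, 95.56% identity. Of these, 22 lie in the last 150 coding bases, printed with the differing bases in capitals, and 1 lies in the first 300.
Trbc1: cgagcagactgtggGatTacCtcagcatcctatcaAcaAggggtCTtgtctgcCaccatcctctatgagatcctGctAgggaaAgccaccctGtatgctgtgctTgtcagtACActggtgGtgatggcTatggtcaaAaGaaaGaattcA
Trbc2: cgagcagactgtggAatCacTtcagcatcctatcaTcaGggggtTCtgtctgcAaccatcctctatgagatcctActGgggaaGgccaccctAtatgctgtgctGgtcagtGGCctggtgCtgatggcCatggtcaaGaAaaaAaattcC
A read pair that falls wholly on bases identical in both genes cannot be placed on 1 gene. Of the 100-base stretches, 28.24% of those of Trbc1 and 30.86% of those of Trbc2 also occur in another gene's transcript. Only uniquely mapped reads were counted, so both genes were counted on part of their length and their levels are uncertain to that extent. No 100-base stretch of Trac, Trdc or Trdv4 was shared in this way, and 8.24% of those of Tcrg-C1 were.

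A few V segments carry much of what follows, and their first 300 coding bases are shown. Where reads fall within these segments is not known from the counts. Tcrg-V5 (chr13:19192278-19192725, plus strand) and Trdv4 (chr14:54074905-54075515, plus strand) encode the variable parts of the DETC receptor, and Trbv16 (chr6:41151740-41152230, plus strand) is a beta V segment.
Tcrg-V5: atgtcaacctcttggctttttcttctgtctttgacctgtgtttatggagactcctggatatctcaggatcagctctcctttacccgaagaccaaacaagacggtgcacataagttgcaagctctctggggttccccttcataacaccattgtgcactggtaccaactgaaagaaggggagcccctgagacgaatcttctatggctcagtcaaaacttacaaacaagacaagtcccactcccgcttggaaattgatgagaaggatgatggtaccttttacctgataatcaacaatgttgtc
Trdv4: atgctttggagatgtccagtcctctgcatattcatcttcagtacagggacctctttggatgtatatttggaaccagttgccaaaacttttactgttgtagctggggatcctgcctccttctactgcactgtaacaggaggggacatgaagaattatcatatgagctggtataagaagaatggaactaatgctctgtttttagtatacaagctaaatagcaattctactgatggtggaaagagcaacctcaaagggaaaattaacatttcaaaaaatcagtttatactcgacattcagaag
Trbv16: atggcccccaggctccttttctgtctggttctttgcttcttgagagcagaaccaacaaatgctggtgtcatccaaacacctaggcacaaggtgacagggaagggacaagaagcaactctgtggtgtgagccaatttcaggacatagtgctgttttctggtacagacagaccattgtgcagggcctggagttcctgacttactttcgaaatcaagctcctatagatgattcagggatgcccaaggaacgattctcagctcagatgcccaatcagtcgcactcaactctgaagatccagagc
J segments are far shorter than a read, and a read that spans 2 annotated genes is left unassigned by the default of the counter, so joined and spliced transcripts are counted mainly on C genes and inside V segments.

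The deposited libraries held 23377571 to 34159435 counts. Members took 335 to 1278 of these per library, and 122 of the 268 members had no count in any of the 11 libraries. Among these were 90 V segments, of which 44 share at least 90% of their 100-base stretches with another gene and could hardly be counted from unique reads, and 32 J or D segments, all shorter than a read. A 0 therefore does not show that a segment was not transcribed. The 8 C genes held most of the 7281 member counts, and the other 260 members together held 1901 (26.11%). After the filter on low counts 13 members were left in the test, of which Trac, Trbv13-2 and Trbv16 were carried by ΔTreg libraries. Foxp3, the gene that carries the DT receptor, had 20 and 14 counts in control mice, 10, 16 and 11 in ΔETreg mice, 23, 13 and 13 in ΔLTreg mice, and 9, 19 and 18 in ΔTreg mice. In CPM the ΔETreg mice lay below both control mice, and the other groups overlapped with control. The log2 fold change against control was -0.49 ± 0.323 (SE) in ΔETreg, -0.23 ± 0.311 in ΔLTreg and -0.30 ± 0.314 in ΔTreg mice, with adjusted p-values of 1.0, 0.738 and 0.546. Adjusted p-values come from the quasi-likelihood test of edgeR, Benjamini-Hochberg adjusted over every gene in the test. At these counts no comparison of the Foxp3 transcript with control passed the test. By flow cytometry, a measure on cells, the paper reports efficient depletion of skin Tregs, at P9 for ΔETreg and at P13 for ΔLTreg mice.

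Summed by locus, the fitted level in ΔTreg skin was 12.6-fold that of control for alpha, 2.41-fold for beta, 1.88-fold for gamma and 1.37-fold for delta. In the alpha, beta and gamma sums the ΔTreg mice lay above every other group. Trac, the single C gene of the alpha chain, was low in control skin at 3 and 5 counts, with 3, 4 and 2 in ΔETreg mice, 9, 7 and 2 in ΔLTreg mice and 130, 138 and 158 in ΔTreg mice. Every ΔTreg mouse was far above the other 8 mice, which lay within a few counts of each other. As CPM (counts per 1000000 TMM-scaled counts of the library), Trac averaged 4.85 ± 0.739 (SD, n = 3) in ΔTreg skin against 0.152 ± 0.0665 (SD, n = 2) in control skin. The ratio of pooled counts was 32.0 with a 95% exact counting interval of 16.1 to 74.6 against control, and 24.1 with an interval of 15.1 to 41.1 against ΔLTreg. In bulk skin, more cells with a transcript and more transcript per cell cannot be told apart, here and for every member below. The fitted log2 fold change of Trac was 4.98 ± 0.398 (SE) against control (edgeR adjusted p = 1.38e-05) and 4.58 ± 0.313 against ΔLTreg (edgeR adjusted p = 6.32e-06). Trac passed the low-count filter through the ΔTreg libraries. With no filter beyond 1 count it was called as well (edgeR adjusted p = 7.48e-21 and 6.22e-25). That run and those given for V segments below use the same counts and are not independent support.

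The beta chain C genes moved the same way but from a higher start. Trbc1 had 24 and 30 counts in control, 19, 31 and 13 in ΔETreg mice, 21, 34 and 18 in ΔLTreg mice, and 78, 86 and 163 in ΔTreg mice. No ΔTreg mouse overlapped another group, and the third mouse stood well above the other two. Its log2 fold change was 1.85 ± 0.404 (SE) against control (edgeR adjusted p = 0.00789), and without the first control mouse the adjusted p was 0.0651. Trbc2 had 153 and 129 counts in control, 138, 135 and 93 in ΔETreg mice, 136, 119 and 145 in ΔLTreg mice, and 263, 246 and 278 in ΔTreg mice. These groups did not overlap with ΔTreg either, at a smaller log2 fold change of 0.78 ± 0.173 (SE) against control (edgeR adjusted p = 0.00841; 0.0733 without the second control mouse). Against ΔLTreg skin of the same age the log2 fold changes were 2.15 ± 0.356 for Trbc1 and 1.03 ± 0.153 for Trbc2, with edgeR adjusted p-values of 0.00175 and 0.000916.

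**Figure D1:**
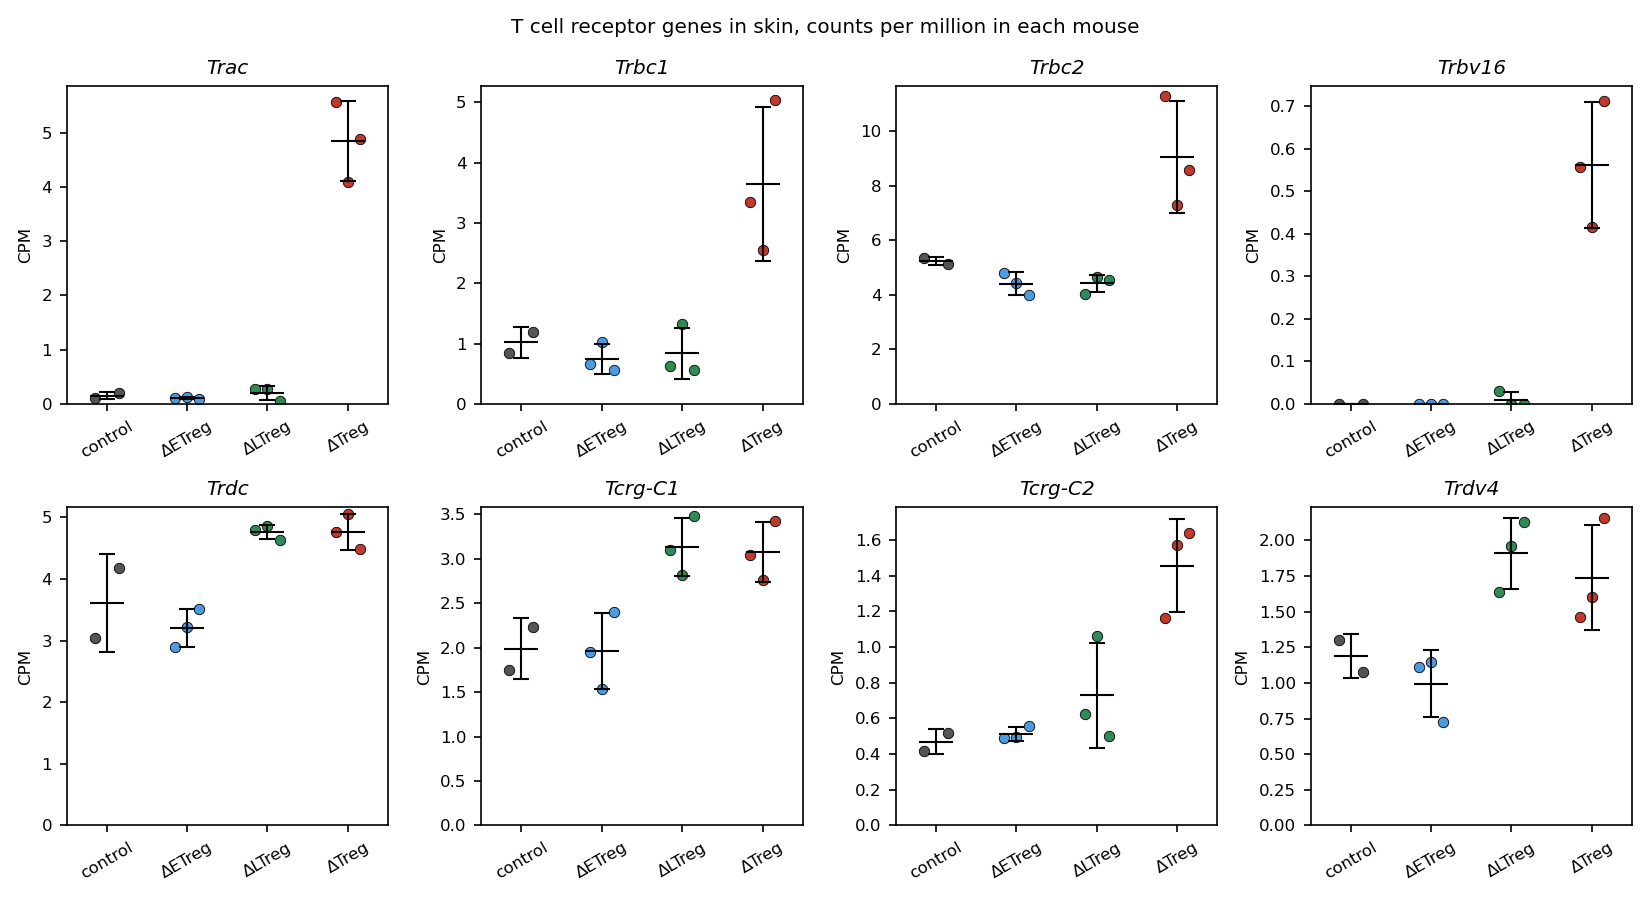
CPM (vertical axis, linear, each panel on its own scale) of 8 receptor genes in each mouse, by group; points are mice, the long bar is the mean and the whiskers are 1 SD. Trac, Trbc1, Trbc2 and Trbv16 are highest in the 3 ΔTreg mice, and Trbc2 is well counted in every group. Trdc, Tcrg-C1 and Trdv4 are at like levels in ΔLTreg and ΔTreg mice, above ΔETreg mice.

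Outside ΔTreg skin the beta C genes were counted with almost no alpha chain beside them. Per kilobase of exon, Trbc2 averaged 7.58 ± 0.224 CPM per kb in the 2 control mice and Trac 0.163 ± 0.0712. In the 3 ΔTreg mice the same quantities were 13.1 ± 2.93 for Trbc2, 4.87 ± 1.70 for Trbc1 and 5.19 ± 0.790 for Trac. The order of Trac and Trbc1 levels in ΔTreg skin was thus not separated beyond the spread between mice, and Trbc2 was above both.

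The V segments of the beta locus gave the sharpest contrast among segments. Summed over its 35 V segments, the beta locus had 4 and 5 counts in control, 2, 6 and 3 in ΔETreg mice, 11, 6 and 3 in ΔLTreg mice, and 92, 88 and 101 in ΔTreg mice. The number of beta V segments with at least 1 count was 4 in each control mouse, 2 to 3 in ΔETreg mice, 3 to 8 in ΔLTreg and 18 in each ΔTreg mouse. For every 100 beta C counts there were 2.26 and 3.14 beta V counts in control mice, 1.27 to 3.61 in ΔETreg mice, 1.84 to 7.01 in ΔLTreg and 22.9 to 27.0 in ΔTreg mice. This ratio is taken within a library and does not depend on depth scaling.

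Trbv16, the beta V segment printed above, had 13, 14 and 23 counts in ΔTreg mice, 1 count in 1 ΔLTreg mouse and none in the other 7 mice. Against the 0 of both control mice the pooled ΔTreg level was at least 5.0-fold higher, with a floor of 3 counts per library, and against ΔETreg at least 5.13-fold higher. The edgeR adjusted p was 0.00272 and 0.000918, for a segment that passed the filter only through ΔTreg libraries, and with no filter beyond 1 count 1.27e-05 and 1.92e-07. Trbv13-2 had 14, 11 and 16 counts in ΔTreg mice and 1 to 4 in each of the others, a log2 fold change of 3.49 ± 0.66 (SE) against control (edgeR adjusted p = 0.00338; 0.0013 with no filter beyond 1 count). Trbv14 (6, 6 and 12 counts in ΔTreg mice), Trbv1 (6, 11 and 5) and Trbv12-2 (7, 5 and 5) were the next by mean count and were too low for the test. Outside ΔTreg skin these 3 segments had at most 2 counts in any mouse, and Trbv14 and Trbv1 were at 0 in control and ΔETreg mice. Many V segments of the locus had counts in each ΔTreg mouse, and no single one made up the sum.

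Beta J segments were counted in every mouse. Their sum was 24 and 22 counts in control, 24, 26 and 17 in ΔETreg mice, 29, 19 and 30 in ΔLTreg mice, and 36, 58 and 55 in ΔTreg mice. Relative to 100 beta C counts this was 12.4 to 18.5 in the 8 mice of the other groups and 10.6 to 17.5 in ΔTreg mice, ranges that overlap. Trbj2-7, the most counted J segment, had 6 and 8 counts in control and 5, 17 and 13 in ΔTreg mice, with a log2 fold change of 0.56 ± 0.437 (SE) and an edgeR adjusted p of 0.407. Trbj2-6 and Trbj2-3 had at most 6 counts in any mouse.

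In the alpha locus, counts on V segments were also highest in ΔTreg mice. Summed over 128 V segments there were 11 and 7 counts in control, 6, 21 and 4 in ΔETreg mice, 12, 11 and 14 in ΔLTreg mice, and 44, 50 and 40 in ΔTreg mice. Segments with a count numbered 1 to 11 in the 8 other mice and 24, 26 and 27 in ΔTreg mice. Trav4-4-dv10, which can be joined in either the alpha or the delta locus, was the most counted alpha V segment, with 6 and 7 counts in control, 4, 6 and 4 in ΔETreg mice, 8, 7 and 11 in ΔLTreg mice, and 4, 9 and 1 in ΔTreg mice. In this segment, unlike the alpha sum, ΔTreg mice overlapped with every other group. Trav13-2 had 5, 3 and 6 counts in ΔTreg mice and none in the other 8.
Trav3-3, Trav12-2 and Trav16 followed, with at most 4 counts in any mouse. Alpha J segments summed to 17, 8 and 16 counts in ΔTreg mice and 1 to 6 in each other mouse, with Traj7, Traj11 and Traj27 never above 3. Among segments of near-invariant αβ receptors, Trav11 (of natural killer T cells) and Traj33 (of mucosal-associated invariant T cells) were at 0 in all 11 libraries, where 99.59% of the 100-base stretches of Trav11 are shared with another gene and Traj33 has 57 bases, so that neither 0 limits their level. Traj18 had 1 count in each of 2 ΔTreg mice, and Trav1 had 1 count in 1 ΔETreg mouse and 2 in 1 ΔTreg mouse.

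**Figure D2:**
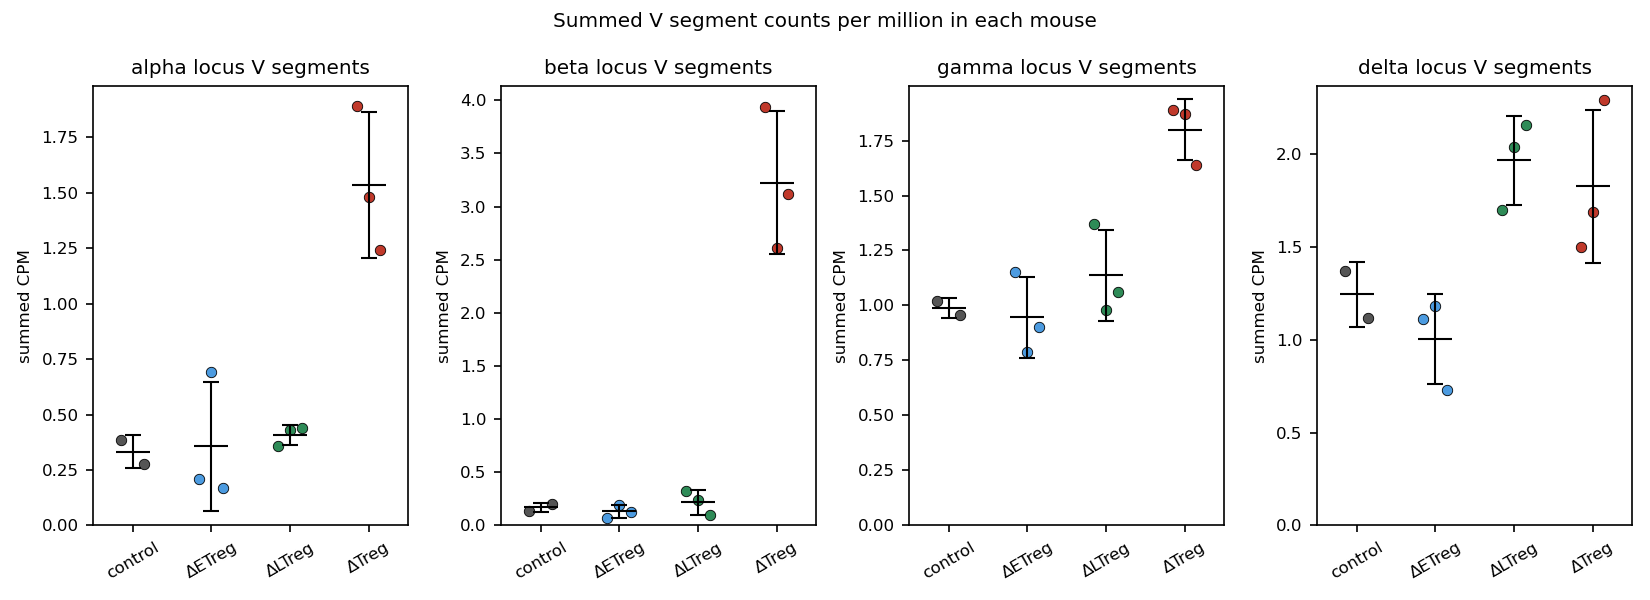
Summed CPM of all V segments of each locus (vertical axis, linear, each panel on its own scale) in each mouse, by group; points are mice, the long bar is the mean and the whiskers are 1 SD. Beta V segments lie between 2.61 and 3.94 in ΔTreg mice and at most 0.328 elsewhere, whereas delta V segments overlap between ΔLTreg and ΔTreg mice.

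Members of the DETC receptor and their C genes followed another order, in which the groups harvested at P13 overlapped. Trdc, the C gene of the delta chain, had 87 and 105 counts in control, 83, 98 and 82 in ΔETreg mice, 161, 124 and 148 in ΔLTreg mice, and 111, 170 and 145 in ΔTreg mice. Scaled to CPM, it was 3.61 ± 0.803 (SD, n = 2), 3.21 ± 0.311, 4.76 ± 0.118 and 4.76 ± 0.283 (SD, n = 3 each). Every ΔLTreg and ΔTreg mouse lay above every other mouse, and those 2 groups overlapped. The log2 fold change was 0.57 ± 0.135 (SE) for ΔLTreg against ΔETreg (edgeR adjusted p = 0.0323), 0.57 ± 0.135 for ΔTreg against ΔETreg (edgeR adjusted p = 0.0103), 0.40 ± 0.151 for ΔTreg against control (0.0832) and 0.00 ± 0.13 for ΔTreg against ΔLTreg (0.999). The pooled ratio of ΔTreg to ΔLTreg was 1.00 with a 95% counting interval of 0.874 to 1.15.

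Tcrg-C1, the C gene that Tcrg-V5 is spliced to, behaved like Trdc. It had 50 and 56 counts in control, 56, 47 and 56 in ΔETreg mice, 104, 72 and 111 in ΔLTreg mice, and 71, 93 and 111 in ΔTreg mice. In CPM the 2 groups of P13 overlapped and lay above both others. The log2 fold change was 0.69 ± 0.182 (SE) for ΔLTreg against ΔETreg (edgeR adjusted p = 0.0491), 0.66 ± 0.182 for ΔTreg against ΔETreg (0.023), 0.63 ± 0.206 for ΔTreg against control (0.0502) and -0.03 ± 0.173 for ΔTreg against ΔLTreg (0.936).

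Of the V segments of the DETC receptor, Trdv4 had 37 and 27 counts in control, 32, 35 and 17 in ΔETreg mice, 55, 50 and 68 in ΔLTreg mice, and 34, 54 and 70 in ΔTreg mice. In CPM these were again higher in both groups of P13, with a log2 fold change of 0.91 ± 0.225 (SE) for ΔLTreg against ΔETreg (edgeR adjusted p = 0.0374) and 0.79 ± 0.227 for ΔTreg against ΔETreg (0.0265). Tcrg-V5 had 18 and 13 counts in control, 22, 15 and 12 in ΔETreg mice, 33, 18 and 23 in ΔLTreg mice, and 26, 25 and 24 in ΔTreg mice. Its log2 fold changes against ΔETreg were 0.44 ± 0.273 in ΔLTreg and 0.52 ± 0.273 in ΔTreg and did not pass (edgeR adjusted p = 0.374 and 0.21). Per kilobase of exon, Trdv4 averaged 2.67 ± 0.351 and Tcrg-V5 1.68 ± 0.233 CPM per kb in control mice, above the 0.935 ± 0.208 of Trdc, whose annotated exons span 3865 bases. Trdv4 held 479 of the 496 counts on delta V segments over all libraries, and Tcrg-V5 held 229 of the 396 on gamma V segments.

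The calls of ΔLTreg against ΔETreg were close to the threshold. Leaving out any 1 of the 6 mice of these groups ended the call of Trdc (edgeR adjusted p between 0.0519 and 0.113), and of these 6 all but the third ΔETreg mouse did so for Tcrg-C1 (0.0637 to 0.183) and all but the first ΔLTreg mouse for Trdv4 (0.0782 to 0.108). For Tcrg-C1 each control mouse (0.0505 and 0.051) and each ΔTreg mouse (0.0636 to 0.0722) did so as well, and for Trdv4 the second ΔTreg mouse (0.0558). These mice are outside the comparison, and the cause was not tested. In ΔTreg against ΔETreg the call of Tcrg-C1 was lost without ΔETreg mouse 1 or 2 (0.0671 and 0.0921) or ΔTreg mouse 1 or 3 (0.0586 and 0.0861), and that of Trdv4 without the third mouse of either group (0.0897 and 0.111). Both were also lost in DESeq2 (adjusted p = 0.0506 for Tcrg-C1 and 0.0883 for Trdv4), whereas Trdc kept its call. In ΔTreg against control Trdc was called without the second control mouse (0.0354) and Tcrg-C1 without ΔETreg mouse 2 or 3 (0.0395 and 0.0429).

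The remaining gamma C genes were highest in ΔTreg skin. Tcrg-C2 (chr13:19304649-19307551, minus strand) had 12 and 13 counts in control, 14, 15 and 13 in ΔETreg mice, 21, 27 and 16 in ΔLTreg mice, and 27, 53 and 53 in ΔTreg mice. In CPM each ΔTreg mouse exceeded every other mouse, and ΔLTreg overlapped with control. Its log2 fold change was 1.65 ± 0.327 (SE) against control (edgeR adjusted p = 0.00456) and 1.04 ± 0.262 against ΔLTreg (edgeR adjusted p = 0.0193), the second being lost in DESeq2 (0.0669), with the 2 groups alone (0.0598) and without ΔLTreg mouse 1 or 3 (0.0624 and 0.0591) or ΔTreg mouse 2 or 3 (0.0694 and 0.0716). Trgv2 (chr13:19336573-19337167), a V segment on the same strand as Tcrg-C2, had 10, 21 and 15 counts in ΔTreg mice against 7, 5 and 5 in ΔLTreg mice, a log2 fold change of 1.43 ± 0.415 (edgeR adjusted p = 0.0369). It had 6 and 10 counts in control mice, from which it was not called different (0.76 ± 0.443, edgeR adjusted p = 0.255). Leaving out any mouse of the ΔLTreg or ΔTreg groups, or the third ΔETreg mouse, ended the call of Trgv2 against ΔLTreg (0.0526 to 0.134). It was also lost in DESeq2 (adjusted p = 0.119).

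Tcrg-C4 had 10 and 9 counts in control, 11, 12 and 7 in ΔETreg mice, 15, 14 and 16 in ΔLTreg mice, and 15, 30 and 22 in ΔTreg mice. In CPM the ΔTreg mice were above all others, with a log2 fold change of 1.06 ± 0.279 (SE) against control (edgeR adjusted p = 0.0198), lost without the first or second control mouse or the second ΔTreg mouse (0.0902, 0.105 and 0.0985) and in DESeq2 (0.239). Against ΔLTreg it was 0.58 ± 0.226 (edgeR adjusted p = 0.116). Tcrg-C3 had a single count, in 1 ΔTreg mouse. Tcrg-V1, Tcrg-V4, Tcrg-V6 and Tcrg-V7 had 32, 21, 15 and 4 counts over all 11 libraries, at most 8 in any mouse, and Trdv5, Trdv1 and Trdv2-2 had 8, 5 and 4. Trgj1, Trgj4, Trgj2, Trdj2 and Trdj1 were at most 5 counts in any mouse. These segments were too low for the test.

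Counted over the 13 members tested, none was called in ΔETreg against control, where 0.00544% of the 18375 genes tested were called. None had an unadjusted p under 0.05, and DESeq2 called 0. In ΔLTreg against control none was called either, by edgeR or DESeq2, against 4.55% of all genes. There 3 members had an unadjusted p under 0.05, namely Trdc, Tcrg-C1 and Trdv4, all higher in ΔLTreg. In ΔTreg against control 7 members were called, all higher, and 6 were not. Of all genes 21.5% were called and 12.1% were called higher in that comparison.

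In ΔTreg against ΔLTreg 7 members were called, all higher, against 16.8% of all genes called and 10.7% called higher. In ΔTreg against ΔETreg 11 were called, all higher, against 23.1% and 13.2%, and Trbj2-7 and Tcrg-V5 were the 2 that were not. In ΔLTreg against ΔETreg 3 were called, all higher, against 6.38% and 3.12%. The median log2 fold change over the 13 members was -0.04, 0.48, 0.78, 1.03, 1.03 and 0.45 in these 6 comparisons, in the order given, and that over all genes lay within 0.01 of 0 in each. Because members that are high in 1 group pass the filter through that group, and the comparisons share libraries, these counts describe the tested members and are not independent of each other.

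**Figure D3:**
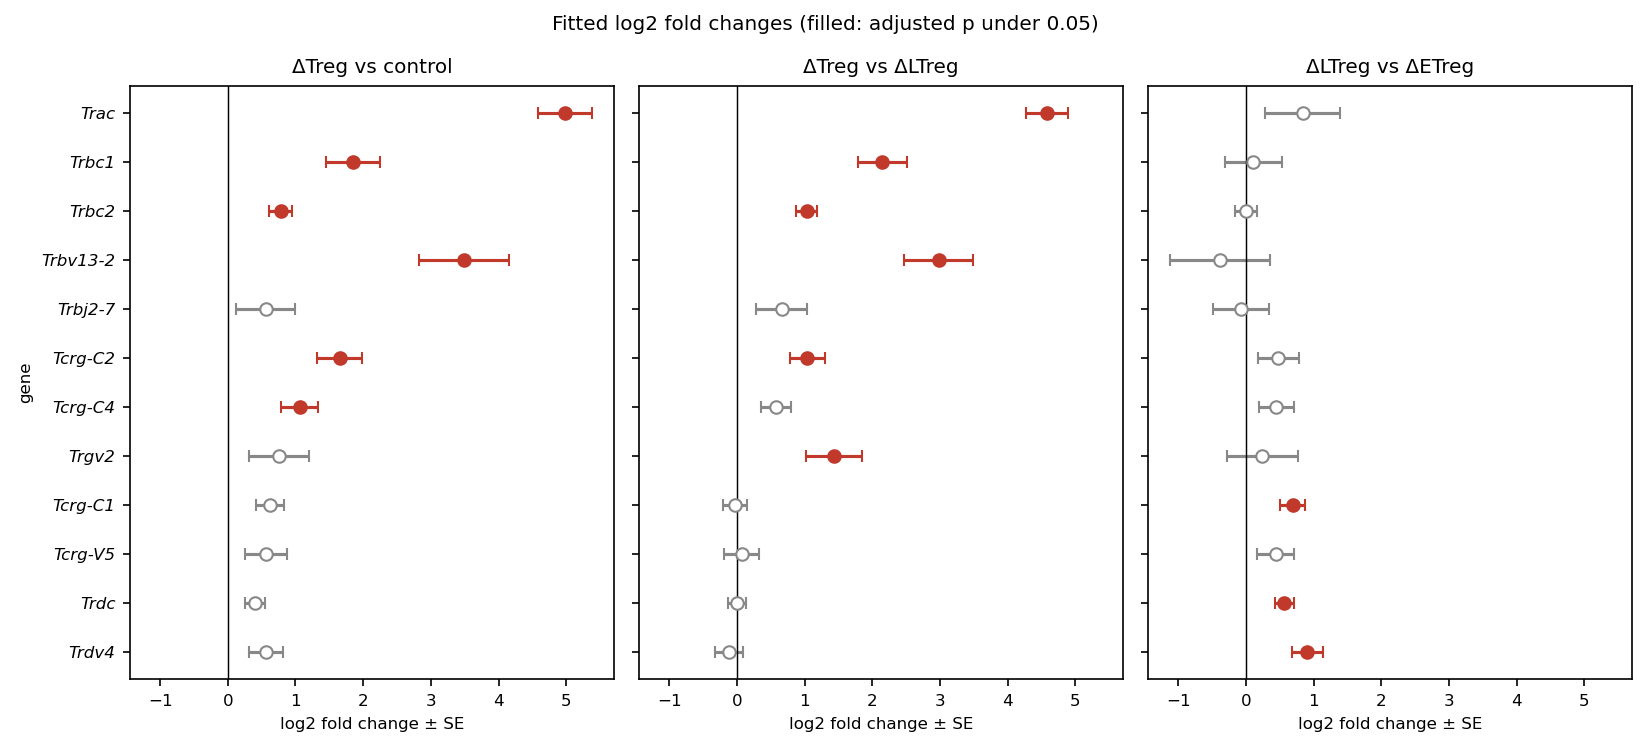
Fitted log2 fold changes (horizontal axis; bars are 1 SE) of 12 tested members in 3 comparisons; filled points have an adjusted p under 0.05 by edgeR. Trac, the beta C genes and Tcrg-C2 are raised in ΔTreg skin against both control and ΔLTreg skin, and Trdc, Tcrg-C1 and Trdv4 are near 0 in ΔTreg against ΔLTreg skin and raised in ΔLTreg against ΔETreg skin.

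Raw counts summed over every member of a locus keep those too low to test. The alpha sum was 15 and 14 in control, 11, 31 and 9 in ΔETreg mice, 24, 21 and 18 in ΔLTreg mice, and 191, 196 and 214 in ΔTreg mice. In the fit the alpha sum of ΔTreg skin was 12.6-fold that of control, a log2 fold change of 3.65 ± 0.358 (SE). The beta sum was 206 and 186 in control, 185, 199 and 127 in ΔETreg mice, 201, 179 and 196 in ΔLTreg mice, and 470, 481 and 598 in ΔTreg mice, 2.41-fold control at a log2 fold change of 1.27 ± 0.151. Both sums were separated from every other group in ΔTreg mice and overlapped between ΔLTreg and ΔETreg mice. In CPM the beta sum of every ΔETreg and ΔLTreg mouse lay below both control mice. The log2 fold changes against control were -0.25 ± 0.152 (SE) in ΔETreg and -0.2 ± 0.151 in ΔLTreg mice.

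The gamma sum was 103 in each control mouse, 117, 101 and 99 in ΔETreg mice, 192, 142 and 180 in ΔLTreg mice, and 159, 246 and 245 in ΔTreg mice. After scaling it stood in steps, with ΔLTreg above ΔETreg by a log2 difference of 0.54 ± 0.115 (SE) and ΔTreg above ΔLTreg by 0.36 ± 0.11, and with no overlap in either. The delta sum was 126 and 133 in control, 116, 134 and 100 in ΔETreg mice, 221, 178 and 220 in ΔLTreg mice, and 146, 227 and 221 in ΔTreg mice. ΔLTreg exceeded ΔETreg by 0.68 ± 0.101 and ΔTreg differed from ΔLTreg by -0.04 ± 0.098, with overlapping mice. No p-value is attached to these sums, since they run over chosen members.

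The share of γδ genes among all C gene counts is set within each library. It was 46.9% and 52.7% in control mice, 50.6%, 50.3% and 59.4% in ΔETreg mice, 64.5%, 59.7% and 63.8% in ΔLTreg mice, and 32.2%, 42.5% and 35.6% in ΔTreg mice. The lowest of all was the first ΔTreg mouse (95% exact binomial interval 28.8% to 35.8% of 695 counts) and the highest the first ΔLTreg mouse (59.9% to 68.8% of 467 counts). All 3 ΔTreg mice were below, and all 3 ΔLTreg mice above, every mouse of the other groups. The ΔLTreg separation was narrow, with overlapping intervals. The second ΔLTreg mouse was at 59.7% (54.7% to 64.6%) and the third ΔETreg mouse at 59.4% (53.2% to 65.4%). The group means were 49.8% ± 4.13 (SD, n = 2), 53.4% ± 5.17, 62.7% ± 2.58 and 36.8% ± 5.22 (SD, n = 3 each). Intervals cover counting error only, because reads without molecular identifiers are not independent molecules.

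The ratio of Trac to Trdc put the contrast into 1 value per mouse. For every 100 Trdc counts there were 3.45 and 4.76 Trac counts in control, 3.61, 4.08 and 2.44 in ΔETreg mice, 5.59, 5.65 and 1.35 in ΔLTreg mice, and 117, 81.2 and 109 in ΔTreg mice. On the log2 scale ΔTreg exceeded control by 4.64, ΔLTreg by 4.86 and ΔETreg by 4.94, with no overlap between mice. The two-sided exact permutation p was 0.1 in each of these, the smallest that 2 or 3 mice against 3 can give. ΔETreg and ΔLTreg overlapped with control and with each other (exact permutation p = 0.6, 1.0 and 1.0).

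**Figure D4:**
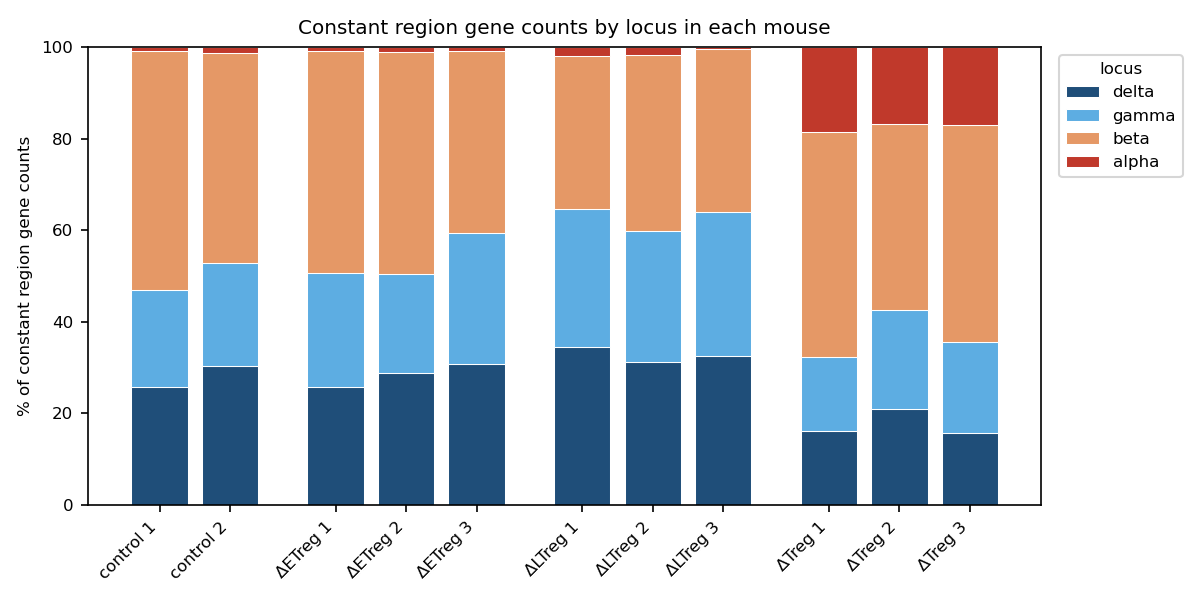
Share of constant region gene counts (vertical axis, percent) that falls on each receptor locus, 1 bar per mouse. The alpha share is 16.9% to 18.7% in the 3 ΔTreg mice and at most 1.93% in the others, and the gamma and delta shares together reach 59.7% to 64.5% in ΔLTreg and 32.2% to 42.5% in ΔTreg mice.

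Genes for proteins that assemble with the receptor chains and pass on their signal were also higher in ΔTreg skin. All 20 genes of a list of the receptor complex and its proximal signalling were tested, and 17 were called higher and none lower in ΔTreg against control, with a median log2 fold change of 1.97, where 12.1% of all genes were called higher. Against ΔLTreg 16 were higher and against ΔETreg 19, with medians of 1.76 and 2.05 and with 10.7% and 13.2% of all genes called higher. In ΔETreg against control and ΔLTreg against control none was called, and in ΔLTreg against ΔETreg only Trat1, an adaptor bound to the receptor complex, was (log2 fold change 0.94 ± 0.233, edgeR adjusted p = 0.0386).
Cd3e, a chain that every receptor of either kind needs, had 76 and 114 counts in control, 95, 129 and 99 in ΔETreg mice, 195, 136 and 176 in ΔLTreg mice, and 271, 323 and 342 in ΔTreg mice. It was above control in each ΔTreg mouse, by a log2 fold change of 1.56 ± 0.201 (edgeR adjusted p = 0.00032), and above ΔLTreg by 0.93 ± 0.167 (edgeR adjusted p = 0.00302). Zap70, the kinase recruited to the activated receptor, rose by a log2 fold change of 2.56 ± 0.206 and Lck, the kinase that acts before it, by 2.03 ± 0.178 in ΔTreg against control (edgeR adjusted p = 1.41e-05 and 2.39e-05). Cd6, a surface receptor of mature T cells, went from 0 to 4 counts in the 8 other mice to 91, 105 and 139 in ΔTreg mice. Cd6 entered the test only through the ΔTreg libraries, and it is counted among the genes called higher above. Fyn, Prkcq and Trat1 did not pass against ΔLTreg, nor did Cd247, with log2 fold changes of 0.45, 0.10, 0.01 and 0.49.

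Coreceptors of αβ T cells were highest in the same mice as Trac. Cd8a had 0 and 2 counts in control, 0, 3 and 1 in ΔETreg mice, 1, 1 and 0 in ΔLTreg mice, and 238, 236 and 296 in ΔTreg mice. Cd8b1, the other CD8 chain, was at 0 or 1 outside ΔTreg skin and at 109, 107 and 125 within it. Both entered the test only through the ΔTreg libraries. Cd4, which macrophages and Langerhans cells can also carry at lower levels, was counted in every mouse, with 41 and 22 in control, 38, 44 and 16 in ΔETreg mice, 33, 21 and 16 in ΔLTreg and 169, 253 and 331 in ΔTreg mice. Its log2 fold change in ΔTreg against control was 2.83 ± 0.33 (edgeR adjusted p = 0.000166). Apart from Cd8a and Cd8b1, Cd4 and Zbtb7b of this list of 6 lineage genes were called higher in ΔTreg against control. Of all genes 12.1% were called higher there. Foxp3 and Runx3 were not called. Zbtb7b was high in all groups. It lay at 152 to 155 CPM in control mice and at 171 to 182 CPM in ΔTreg mice.

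The recombination genes were at the floor throughout. Rag2 had no count in any mouse, Rag1 had 0 to 2, Dntt had 1 count in 1 ΔETreg mouse, and Ptcra, the partner of the beta chain in thymocytes, had 0 to 5. None of these 4 could be tested. A list of 6 thymus and lymph node stroma and follicle genes summed to 9.06 to 11.8 CPM in ΔTreg mice and 5.38 to 7.69 in the others. Only 3 of the 6 were tested. Of these, 2 were called higher in ΔTreg against control, where 12.1% of all genes were called higher. B cell genes summed to 14.8 to 17.7 CPM in ΔTreg mice and 4.93 to 11.2 elsewhere, and natural killer cell genes to 1.84 to 2.36 against 0.159 to 0.353, where Klra4 was at 0 in control and ΔETreg mice; Ms4a1 of the B cell list was at 0 in control mice. Macrophage genes summed to 211 to 272 CPM in ΔTreg mice and 70.6 to 160 elsewhere. The part of these cells in the receptor results was not tested. Keratinocyte genes, which mark the tissue, summed to 7780 to 10100 CPM in all 11 mice with overlapping groups. Its members differed among themselves, with log2 fold changes in ΔTreg against control of -1.93 for Krt1 and -0.66 for Krt10, the keratins of differentiating cells, and 0.40 for Krt14, a basal keratin (edgeR adjusted p = 0.000664, 0.0357 and 0.018), and Krt1 was lower in ΔLTreg too (-1.50, adjusted p = 0.0141). Skeletal muscle genes summed to 803 to 3700 CPM, highest in a ΔLTreg mouse.

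A list of γδ T cell genes other than the receptor was followed as well. It holds 10 genes, among them transcription factors and receptors associated with γδ T cells, and 7 were tested. In ΔTreg against control 2 of the 7 were called higher and none lower, where 12.1% of all genes were called higher. The scavenger receptor gene 5830411N06Rik was 1 of the 2, with a log2 fold change of 2.04 ± 0.529 (SE) and an edgeR adjusted p of 0.0188. Il17a had no count in any mouse. In ΔLTreg against ΔETreg none of the 7 was called, where 6.38% of all genes were called.

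Genes linked to the selection of DETCs or to their upkeep in the epidermis were also examined. DETCs arise in the fetal thymus, so levels in this skin do not report on their selection. Of 15 genes, 11 were called higher and 1 lower in ΔTreg against control, 9 higher and 2 lower against ΔLTreg, and 3 higher in ΔLTreg against ΔETreg, beside 21.5%, 16.8% and 6.38% of all genes called in either direction. Skint1, a gene needed for DETC selection, rose by a log2 fold change of 1.26 ± 0.154 (edgeR adjusted p = 0.000226) and Skint2, a related gene, by 1.98 ± 0.116 (edgeR adjusted p = 2.02e-06) in ΔTreg against control. Skint5 was lower by a log2 fold change of -1.18 ± 0.186 (edgeR adjusted p = 0.00113). Il15, a cytokine that maintains DETCs, rose by 0.91 ± 0.195, Klrk1, which encodes NKG2D on DETCs, CD8 T cells and natural killer cells, by 1.83 ± 0.241, and Itgae, the integrin that binds T cells to keratinocytes, by 1.31 ± 0.113 (edgeR adjusted p = 0.00708, 0.000358 and 2.17e-05). Skint genes are close copies of each other, so reads shared between them make their single values uncertain.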

How the data were processed

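Paired-end reads of 150 bp were trimmed (Trimmomatic 0.36), aligned to GRCm38 (STAR 2.5.2b) and counted on exons where uniquely placed (featureCounts of Subread 1.5.2). The authors deposited raw whole-number counts without normalization for 11 libraries of whole skin biopsies. The strand setting, the annotation release and the choice between poly(A) enrichment and rRNA depletion are not given in the sources used here. Names and coordinates of all 268 members matched GENCODE M21 by identifier.

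The table was fitted in edgeR 4.0.16 (R 4.3.3): filterByExpr by group (18375 genes left), TMM scaling, 1 mean per group fitted to all 11 libraries, and the quasi-likelihood test for 6 pairs of groups, Benjamini-Hochberg adjusted over all genes in the fit, at a threshold of 0.05. Standard errors were taken as the log2 fold change over the root of F. Locus sums replaced the member rows in the same fit. Libraries held 23377571 to 34159435 counts, and CPM uses these totals times the TMM factors (23321497 to 33677213). Exact intervals (95%) and permutation tests were computed in Python 3.11.15 with SciPy 1.17.1. The fit was tried on simulated counts that had the same dispersion of 0.012 for every gene, with changes only in better-counted genes. These do not show how the fit does for members with few counts. Mice of 1 group differed beyond counting error (median chi-square per gene of 1.09 to 4.29), and all libraries carry 1 batch label. The model p-values rest on the shared spread of groups of 2 or 3 mice.

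Alternatives were DESeq2 1.42.0, other scaling, other filters, the 2 groups alone, C genes alone for locus sums, and each mouse left out. Named genes were every C gene, the 5 V and 3 J segments per locus with the most counts, each member called, segments of near-invariant receptors, and fixed lists. Members and lists were chosen with earlier results of these data known. For the lists, only examples are named with values. The 2 gene models of receptor V type whose names lie outside the name pattern were not included.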

Additional observations from a re-analysis of the deposited data

How the results depend on the processing

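No member called in 1 direction turned to the other under any alternative run: of 28 calls over the 6 comparisons, 16 held under every one, and 65 of 456 recomputed values lost the call. Of 50 results not called, 48 stayed so under every alternative. The number of members called in ΔTreg against control, ΔLTreg and ΔETreg was 7, 7 and 11, and moved to 11, 13 and 19 with no filter beyond 1 count and to 4, 3 and 6 with at least 10 counts in every library, since the filters change which members are tested. In ΔLTreg against ΔETreg the 3 calls fell to 1 with DESeq2 and 0 with the 2 groups alone. Leaving out 1 mouse at a time gave 5 to 8 calls against control, 4 to 8 against ΔLTreg (4 without the third ΔTreg mouse), 8 to 12 against ΔETreg and 0 to 2 in ΔLTreg against ΔETreg. With C genes alone the alpha log2 fold change was 4.98, 4.58 and 5.42 in ΔTreg against control, ΔLTreg and ΔETreg, -0.44 in ΔETreg against control and 0.84 in ΔLTreg against ΔETreg; the beta value was 1.02, 1.27 and 1.29 in ΔTreg against control, ΔLTreg and ΔETreg, and the delta value 0.57 in ΔLTreg against ΔETreg. With the alpha over the delta locus in place of Trac over Trdc, the log2 difference was 3.20, 3.34 and 3.04 in ΔTreg against control, ΔLTreg and ΔETreg. The cause of these shifts was not tested.

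Leaving out 1 mouse moved the alpha sum to between -0.49 and 0.43 in ΔETreg against control, 3.22 and 4.14 in ΔTreg against ΔETreg, and -0.07 and 0.85 in ΔLTreg against ΔETreg, where the second ΔETreg mouse decided the extremes (-0.49, 4.14 and 0.85 without it). The delta sum moved to between -0.32 and -0.06, 0.36 and 0.63, and 0.32 and 0.58 in ΔETreg, ΔLTreg and ΔTreg against control, set by which control mouse was left out. No paired analysis was possible because the labels give the mice no numbers shared between groups. Most V and J segments had too few counts for a test; the parts of depth, shared sequence and segment length in this were not separated.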
